A study of Mus musculus with 9 samples.

Results

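DNA replication and dNTP synthesis genes were followed in the RNA-seq libraries of mouse CD4+ T cells, as the rows of the TPM table that carry 1 of 47 gene names. All 47 were found among the 55487 genes listed, each name once, and all 47 passed the filter of at least 1 TPM in at least 3 libraries that left 15536 genes to be tested. The names were chosen by function. The set holds 6 origin recognition subunits, 2 licensing loaders, 6 MCM2-7 helicase subunits, 8 origin firing factors, 9 polymerase and primase subunits, 6 clamp and clamp loader subunits, 3 RPA subunits, 2 Okazaki fragment enzymes and 5 enzymes of dNTP supply.

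The cells were purified by negative selection from spleens of female wild-type (Trail-r+/+) C57BL/6 mice aged 6 to 7 weeks, and 3 libraries were made for each of 3 groups. Medium cells were kept in culture medium without an agent, for a time that the labels do not give. Stimulated cells were held for 24 h with Abs to CD3 (3 µg/ml), part of the TCR complex, and to the costimulatory receptor CD28 (2 µg/ml). TRAIL-treated cells received the same 2 Abs together with 10 µg/ml of TRAIL, the ligand of TRAIL-R, for 24 h. No group received TRAIL without the Abs. The TPM unit divides the reads of a gene by its length and scales each library to the same total, so it gives a share of the RNA and keeps no depth. Nothing states that the libraries of a group came from separate mice or cultures, and p-values therefore measure only the spread between these libraries.

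DNA replication begins when the origin recognition complex, Cdc6 and Cdt1 load the MCM2-7 helicase onto DNA in G1. The kinase Cdc7 with its activator Dbf4, together with Mcm10, Cdc45 and the GINS complex, then turns the loaded helicase into a moving one, and primase, polymerases, the PCNA clamp, RPA, Fen1 and Lig1 copy both strands. Resting T cells are in G0 and, after engagement of the TCR and CD28, assemble this machinery and raise their dNTP supply before the first division. Many of these genes are known targets of E2F transcription factors, which bind short GC-rich sites near transcription starts.

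E2F-type letters stood in the promoter windows of several members, and stretches that hold them before the start are shown, whatever the course of the member. RefSeq (GRCm38.p6) windows from 250 bases before to 50 bases after an annotated start were held for 40 of the 47 members, in 49 windows. Mcm4, Gins1, Gins2, Gins4, Prim2, Pole and Rfc2 had no window. The letters TTTCCCGC, TTTGGCGC, TTTCGCGC and TTTGCCGC, searched on both strands with overlaps counted, occurred in 15 of the 49 member windows (30.6%), compared with 3.96% of the 12639 windows of genes tested and 2.26% of all 32851 windows. The CCAAT letters, on both strands, occurred in 51.0% of member windows and in 37.4% of all windows. In the 9 member windows with an E2F-type match before the start, the stretches read as follows, 5′ to 3′ along the gene's strand, with the matched letters in capitals.
Mcm5 (chr8:75109345-75109424, + strand): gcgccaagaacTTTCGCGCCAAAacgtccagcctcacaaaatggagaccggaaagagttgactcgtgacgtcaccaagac
Mcm6 (chr1:128359747-128359826, - strand): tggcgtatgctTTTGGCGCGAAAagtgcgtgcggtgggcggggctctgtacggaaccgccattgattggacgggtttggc
Pola1 (chrX:93632225-93632304, - strand): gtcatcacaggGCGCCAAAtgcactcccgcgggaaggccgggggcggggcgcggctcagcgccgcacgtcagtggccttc
Orc1 (chr4:108579416-108579445, + strand): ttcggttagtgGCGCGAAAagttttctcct
Cdc6 (chr11:98908002-98908031, + strand): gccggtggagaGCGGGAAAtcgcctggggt
Mcm7 (chr5:138172030-138172059, - strand): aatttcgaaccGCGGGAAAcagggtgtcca
Rfc3 (chr5:151651209-151651238, - strand): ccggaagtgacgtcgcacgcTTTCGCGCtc
Orc3 (chr4:34614965-34614994, - strand): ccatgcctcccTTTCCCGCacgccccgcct
Gins3 (chr8:95633507-95633536, + strand): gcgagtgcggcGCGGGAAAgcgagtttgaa
The capitals of Mcm5 and Mcm6 each hold 2 overlapping matches on opposite strands, at -153 and -149 and at -110 and -106 from the start, and Mcm6 has another match at -47 that is not shown. The Orc1 match lies at -27 and that of Cdc6 at -138. The first 7 members listed rose with stimulation and fell with TRAIL, whereas Orc3 passed neither test and Gins3 fell with TRAIL and did not pass with stimulation. Of the 27 members with a window that fell at least 2-fold with TRAIL, 11 held the letters somewhere in a window, and so did 4 of the 13 others. The match is of letters only, and binding was not measured.

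The 47 members together took 1791 ± 83.9 TPM (SD, n = 3) in medium, 4001 ± 101 TPM after stimulation and 1771 ± 12.5 TPM after stimulation with TRAIL. The stimulated libraries held 3885 to 4069 TPM, above every medium (1709 to 1876 TPM) and every TRAIL-treated library (1759 to 1784 TPM), and the medium and TRAIL-treated libraries overlapped. In bulk RNA, a change in the number of cells that express these genes and a change in RNA per cell cannot be told apart. The summed level of MCM2-7 differed most between medium and stimulated cells in absolute terms, at 359 to 378 TPM in medium, 1208 to 1436 TPM after stimulation and 299 to 344 TPM with TRAIL. The 3 RPA genes together stood at 135 to 152, 174 to 220 and 155 to 167 TPM, the smallest ratio of stimulated to TRAIL-treated means among the 9 roles (1.24, compared with 4.15 for MCM2-7).

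**Figure D1:**
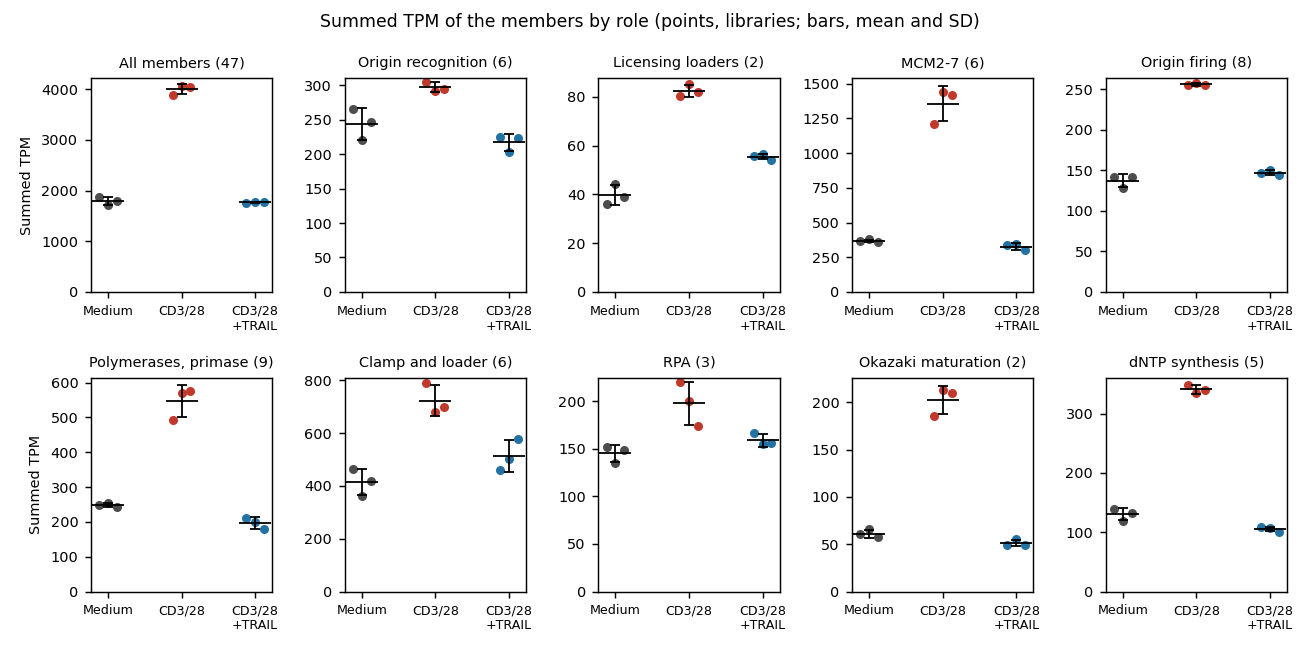
Summed TPM of all 47 members and of each role (the number of genes is in parentheses) in medium, stimulated and TRAIL-treated libraries. Points are libraries and bars give the mean and SD of 3. The 3 stimulated libraries lie above all others in every panel, by the widest ratio for MCM2-7 (1208 to 1436 TPM against 359 to 378 TPM in medium).

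The libraries also differed in RNA of other cells and in one technical respect. All markers reported here of B, myeloid, erythroid and NK cells fell with stimulation and rose again with TRAIL in limma. The 6 B cell markers summed to 1930 to 1995, 149 to 164 and 802 to 895 TPM in medium, stimulated and TRAIL-treated libraries. The corresponding sums were 1293 to 1387, 21.4 to 26.5 and 1033 to 1169 TPM for the 7 myeloid markers and 2061 to 2502, 24.8 to 39.6 and 607 to 656 TPM for the 5 erythroid markers. The 3 NK markers summed to 78.7 to 98.9, 6.78 to 8.59 and 22.9 to 23.4 TPM, and the 2 CD8 markers to 110 to 118, 94.2 to 105 and 46.9 to 49.4 TPM. The 6 T cell markers, with Cd4 present in every library, summed to 2227 to 2445, 1604 to 1725 and 2029 to 2334 TPM. Of these, Cd3g, Cd4 and Lck fell with stimulation in limma, and Cd3d, Cd3e and Cd5 did not pass. With TRAIL, Cd3d, Cd3g, Cd4 and Lck rose, and Cd3e and Cd5 did not pass. The part of all these cell types in the member levels was not tested. Libraries of 1 group also differed from each other by transcript length, most in stimulated replicate 1, which had lower values for long genes: over 15508 genes (genes are no replicates), the Spearman correlation of its deviation from the group mean with exon length was -0.47, and across the 47 members it was -0.57. In the other 8 libraries the correlation across members ran from -0.30 (medium replicate 3) to 0.55 (stimulated replicate 2), with 0.47 in TRAIL-treated replicate 1. The part of exon length in single values was not tested.

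Stimulated cells were first compared with medium cells, to ask which parts of the replication machinery T cell activation raised. Of the 47 members, 39 rose and 1, Orc4, fell (limma on log2(TPM + 1), Benjamini-Hochberg adjusted p below 0.05), and 7 passed in neither direction. Among all genes tested, 28.8% rose and 40% fell. A rise of at least 2-fold was found for 27 members and for 12.4% of all genes, while a fall of that size was found for 19.5% of all genes and for 0 members, of which 1 fell at an unadjusted p below 0.05. The median log2 fold change was 1.06 over the members and -0.15 over all genes. Without stimulated replicate 1, 40 members rose, 30 of them at least 2-fold, and 1 fell.

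TRAIL-treated cells were then compared with stimulated cells, to ask what TRAIL did to the same genes during activation. Of the members, 40 fell and 3 rose (Dbf4, Orc4 and Rpa1), and Orc3, Orc5, Pcna and Rfc1 did not pass. Among all genes tested, 33.5% were lower and 33.5% were higher. A fall of at least 2-fold was found for 32 members and 14.3% of all genes, and a rise of that size for 16.6% of all genes and 0 members, of which 3 rose at an unadjusted p below 0.05. The median log2 fold change was -1.34 over the members and 0.01 over all genes. This comparison shares the stimulated libraries with the one before. Without stimulated replicate 1, 41 members fell, 32 of them at least 2-fold, and 3 rose. Without stimulated replicate 3 or without TRAIL-treated replicate 1, Dbf4 alone remained among the risers.

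**Figure D2:**
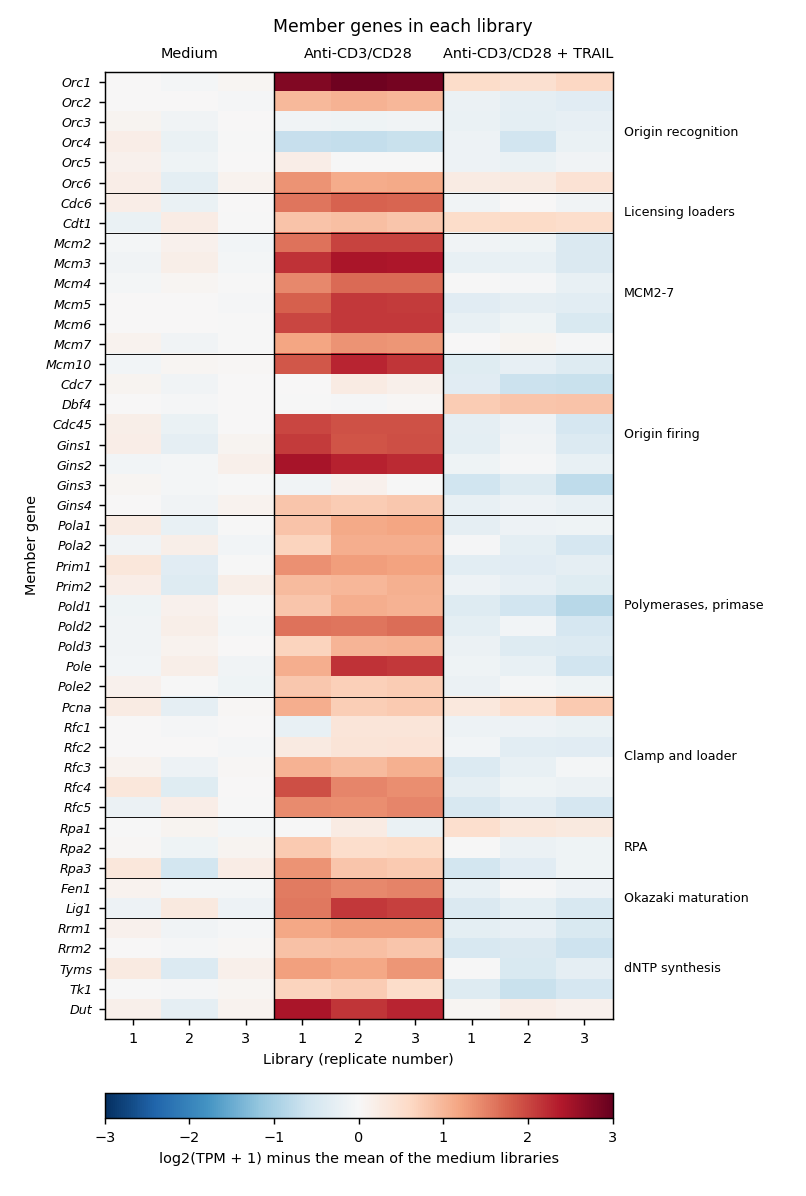
Level of each of the 47 members in each of the 9 libraries, as log2(TPM + 1) minus the mean of the 3 medium libraries (red, higher; blue, lower), ordered by role. Most rows are red in all 3 stimulated libraries and near white in medium and TRAIL-treated libraries, whereas Orc4 is blue in stimulated libraries and Dbf4 is red with TRAIL only.

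**Figure D3:**
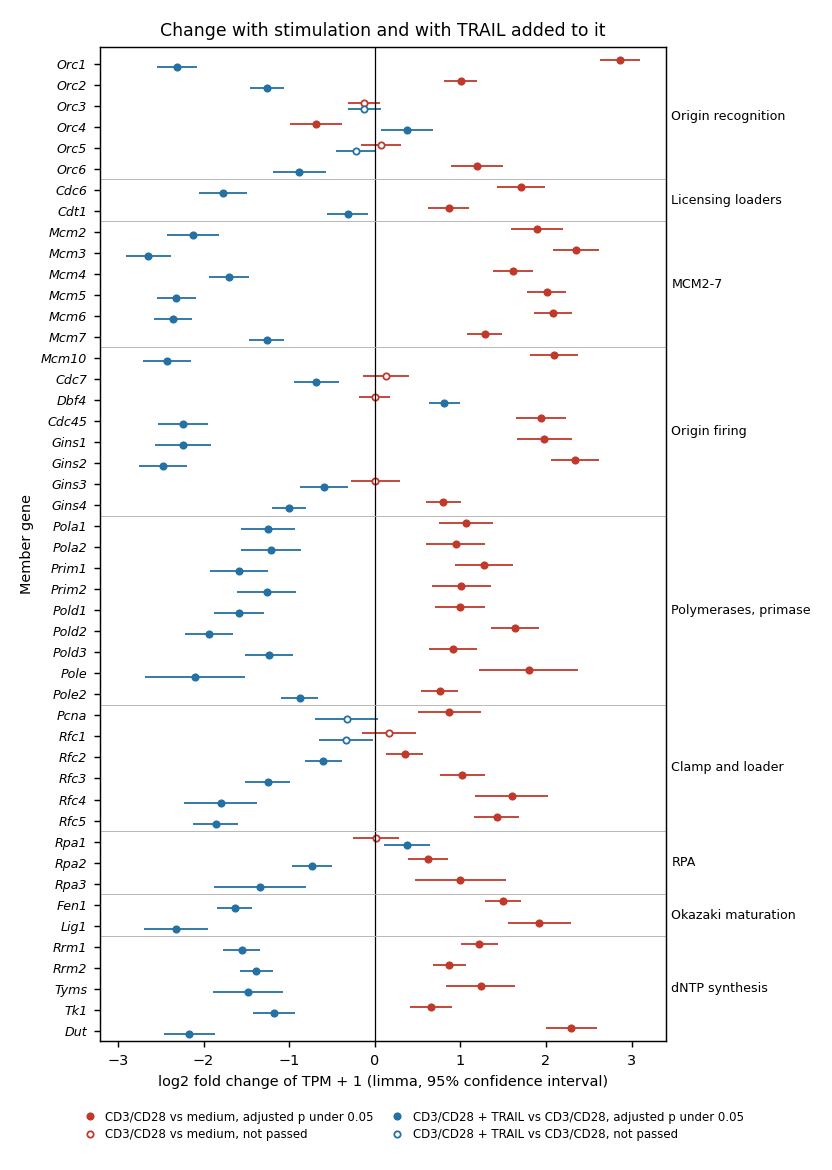
Log2 fold change of each member with stimulation (red, stimulated against medium) and with TRAIL added (blue, TRAIL-treated against stimulated), from limma on log2(TPM + 1), with 95% confidence intervals over 3 libraries a group. Filled points passed an adjusted p of 0.05. The red points reach 2.86 (Orc1) and the blue points -2.65 (Mcm3), and Dbf4, Orc4 and Rpa1 are the blue points that passed to the right of 0.

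The origin recognition complex, which marks origins and recruits the helicase, did not move as one. Orc1, the ATPase subunit whose level varies with the cell cycle in many cells, stood at 2.35, 2.16 and 2.45 TPM in medium, 21.8, 24.1 and 23.5 TPM after stimulation, and 3.89, 3.63 and 4.08 TPM with TRAIL. The 3 groups did not overlap, and the TRAIL-treated libraries lay just above medium. Its log2 fold change of 2.86 ± 0.11 (SE, adjusted p = 6.2e-09) was the highest of the 47 members on stimulation, and it fell by 2.31 ± 0.11 with TRAIL (limma adjusted p = 3.2e-08). Over 18 alternative settings the rise of Orc1 ran from 1.94 to 3.26 and that of Mcm3 from 2.25 to 2.44. The top rank of Orc1 therefore did not hold under every setting. Orc2 was at 26.1, 26.1 and 25.3 TPM in medium and 51.2, 54.2 and 52.6 TPM after stimulation, and the TRAIL-treated libraries, at 22.8, 21.3 and 20.2 TPM, were below both. Orc6, the smallest and most loosely held subunit, rose by 1.19 ± 0.14 on the log2 scale and fell by 0.88 ± 0.14.

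Orc3 and Orc5, core subunits of the same complex, passed neither test. Orc3 ranged from 85.7 to 98.6 TPM in medium, 83.9 to 85.5 TPM after stimulation and 75.7 to 80.5 TPM with TRAIL, with log2 fold changes of -0.12 in both comparisons (95% intervals from -0.31 to 0.07 with stimulation and from -0.31 to 0.07 with TRAIL). Orc5 ranged from 30.02 to 36.3, 33.0 to 38.4 and 28.6 to 30.8 TPM. Orc4, another core subunit, went the other way from most members: it stood at 71.6, 54.0 and 61.8 TPM in medium, 38.3, 37.5 and 38.9 TPM after stimulation, and 56.0, 41.4 and 53.8 TPM with TRAIL. The stimulated libraries were the lowest 3, and the medium and TRAIL-treated libraries overlapped. Its fall with stimulation (-0.68 ± 0.14, limma adjusted p = 0.0012) held under all 18 alternative settings, but its rise with TRAIL (0.38 ± 0.14, adjusted p = 0.031) was lost under 5 of them, where adjusted p over all alternatives ran from 0.0077 to 0.14. Orc1 had the lowest and Orc3 the highest mean TPM of the 6 subunits in every group, and they differed 40.0-fold in medium, 3.67-fold after stimulation and 20.2-fold with TRAIL.

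**Figure D4:**
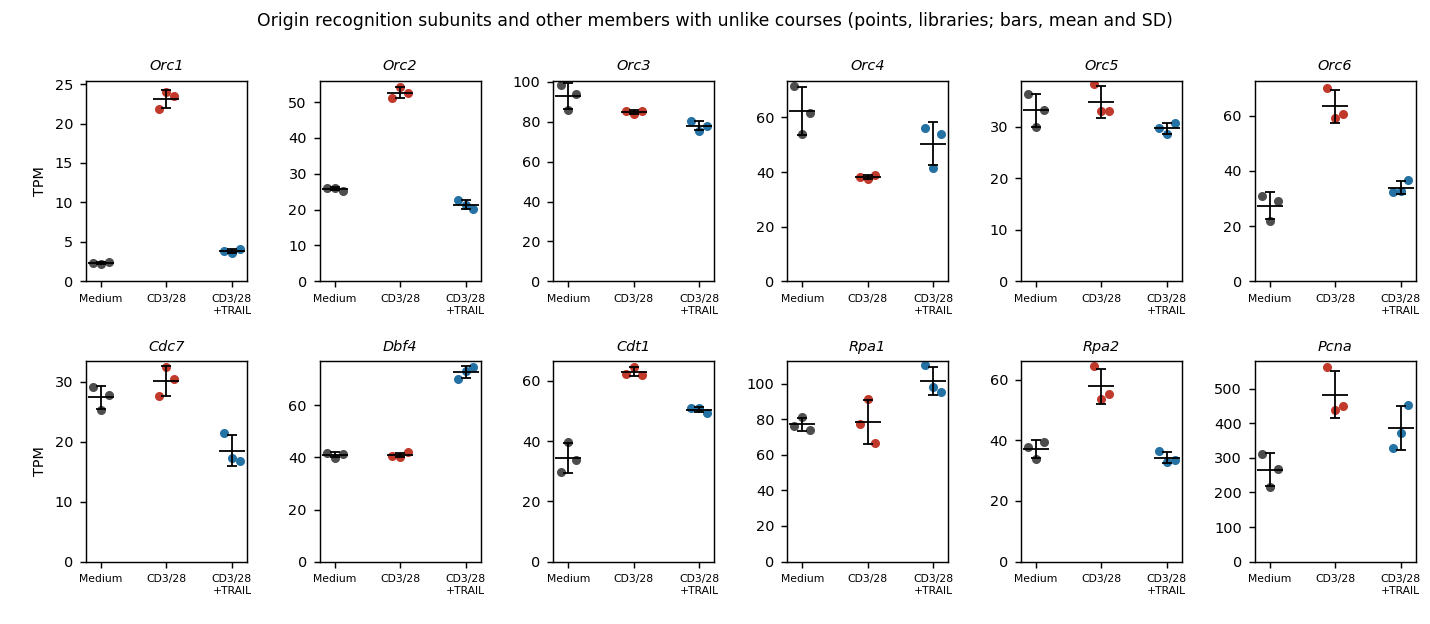
TPM of the 6 origin recognition subunits and of 6 other members with unlike courses in medium, stimulated (CD3/28) and TRAIL-treated libraries. Points are libraries and bars give the mean and SD of 3. Orc1 peaks in stimulated cells at 21.8 to 24.1 TPM, Orc4 is lowest there at 37.5 to 38.9 TPM, and Dbf4 is highest with TRAIL at 70.1 to 74.8 TPM.

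The 2 loaders that join MCM2-7 to the origin recognition complex differed in how they responded to TRAIL. Cdc6, the ATPase loader, stood at 6.22, 4.43 and 5.29 TPM in medium, 18.02, 20.5 and 20.0 TPM after stimulation and 4.87, 5.30 and 4.78 TPM with TRAIL. The TRAIL-treated libraries fell within the range of medium, with a fall of 1.77 ± 0.13 on the log2 scale from stimulated cells. Cdt1, which brings the helicase to the origin, stood at 29.8, 39.8 and 33.7 TPM, then at 62.2, 64.7 and 62.1 TPM, and with TRAIL at 50.9, 51.1 and 49.4 TPM. The 3 groups of Cdt1 values did not overlap, and TRAIL-treated cells stayed nearer to stimulated than to medium cells. The fall of Cdt1 with TRAIL (-0.31 ± 0.11, limma adjusted p = 0.025) was lost under 8 of the 18 alternatives, with adjusted p from 0.0082 to 0.15, among them median-of-ratios scaling, quantile normalization and leaving out any TRAIL-treated library.

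All 6 subunits of the MCM2-7 helicase, the ring that unwinds DNA at the fork, rose at least 2-fold with stimulation and fell at least 2-fold with TRAIL. Mcm3 showed the widest course, at 41.0, 50.7 and 42.3 TPM in medium, 204, 248 and 243 TPM after stimulation and 38.1, 37.8 and 32.6 TPM with TRAIL. All TRAIL-treated values of Mcm3 were below the lowest medium value, but the difference from medium did not pass (-0.30 ± 0.12, limma adjusted p = 0.083). Mcm3 rose by 2.35 ± 0.12 on the log2 scale with stimulation and fell by 2.65 ± 0.12 with TRAIL, a level 6.41-fold lower with TRAIL than without. Mcm7 moved least, with a rise of 1.28 ± 0.09 and a fall of 1.26 ± 0.09, at 74.6 to 87.4, 185 to 205 and 78.4 to 85.9 TPM in the 3 groups. The rises of Mcm2, Mcm4, Mcm5 and Mcm6 lay between 1.61 (Mcm4) and 2.08 (Mcm6) and their falls between -1.70 and -2.35. The mean levels of the 6 subunits stayed within 1.81-fold of each other in medium (44.7 to 80.7 TPM), 1.55-fold after stimulation (195 to 302 TPM) and 2.26-fold with TRAIL (36.2 to 81.7 TPM). Exons of Mcm7 share 321 bases with Ap4m1 and 64 bases with Cops6 on the opposite strand, which reached 21.5 and 114 TPM. The strand setting of the counting was not given. Longer overlaps of this kind were held by Orc2 (1150 bases with Nif3l1), Rfc2 (952 bases with Lat2) and Rfc5 (499 bases with Wsb2). These partners reached 16.0, 71.4 and 34.6 TPM, and reads of such pairs cannot be told apart without strand. Fen1 shared 1909 bases with Gm10143, Orc4 446 bases with Acvr2a and Orc1 376 bases with Gm12743, whose highest levels in any library were 0.362, 2.535 and 0.786 TPM. Fen1 also shared 130 bases with Tmem258 and Orc4 136 bases with Mbd5, which reached 105.1 and 15.8 TPM.

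Origin firing factors divided into those that followed the helicase and those that did not. Mcm10, which helps activate the helicase, stood at 5.42 to 6.04 TPM in medium, 23.7, 31.9 and 29.0 TPM after stimulation and 4.22 to 4.70 TPM with TRAIL. Cdc45, a subunit of the active helicase, rose by 1.94 ± 0.13 and fell by 2.24 ± 0.13 on the log2 scale. Gins1 and Gins2, of the 4-part GINS complex that completes the active helicase, did likewise, and Gins2 was 6.64-fold higher with stimulation and 7.55-fold lower with TRAIL than without, at 2.35, 2.40 and 2.99 TPM, then 18.9, 16.7 and 15.8 TPM, then 2.26, 2.51 and 2.04 TPM. That ratio was the largest among the 47 members for the TRAIL comparison. However, 2758 exon bases of Gins2 are shared on the opposite strand with Gse1, which reached 62.8 TPM, above every value of Gins2. Gins4 moved less (0.80 ± 0.09 and -1.0 ± 0.09). Gins3 was listed at 9.12, 8.35 and 8.66 TPM in medium, 8.09, 9.61 and 8.64 TPM after stimulation and 5.38, 6.48 and 4.69 TPM with TRAIL. Medium and stimulated values of Gins3 overlapped (log2 fold change 0.01 ± 0.13, and 0.29, which passed, with quantile normalization), and all TRAIL-treated values were below them (a fall of 0.59 ± 0.13, limma adjusted p = 0.0021).

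The Cdc7 kinase and its activator Dbf4, which act as one enzyme, went in opposite directions with TRAIL. Cdc7 stood at 29.1, 25.3 and 27.7 TPM in medium, 27.6, 32.4 and 30.4 TPM after stimulation, and 21.4, 17.3 and 16.8 TPM with TRAIL. Dbf4 stood at 41.7, 39.8 and 41.5 TPM in medium, 40.7, 40.3 and 42.0 TPM after stimulation, and 70.1, 73.4 and 74.8 TPM with TRAIL. For both genes, medium and stimulated libraries overlapped and the TRAIL-treated libraries stood apart, lower for Cdc7 and higher for Dbf4. With stimulation Cdc7 did not pass (0.13 ± 0.12), except with quantile normalization (0.28). With TRAIL, Cdc7 fell by 0.68 ± 0.12 against stimulated cells and Dbf4 rose by 0.81 ± 0.08 (limma adjusted p = 0.00053 and 8.4e-06), a Dbf4 level 1.78-fold that of stimulated cells. The rise of Dbf4 passed under all 18 alternatives, at 0.76 to 0.91 on the log2 scale. It was the only member that rose with TRAIL against both other groups under every alternative run. Dbf4 (ENSMUSG00000002297, chr5:8396973-8422716 on GRCm38, - strand) had none of the E2F-type letters in its window.

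All 9 polymerase and primase subunits rose with stimulation and fell with TRAIL. Of the polymerase alpha-primase complex, which starts each new strand, Pola1, Pola2, Prim1 and Prim2 rose by 0.94 to 1.27 on the log2 scale and, with TRAIL, changed by -1.21 to -1.59. Of polymerase delta, the lagging strand enzyme, Pold2 moved most (1.64 ± 0.12 and -1.94 ± 0.12), and the catalytic subunit Pold1 stood at 46.1, 55.1 and 49.5 TPM, then 90.5, 107 and 105 TPM, then 38.2, 33.6 and 27.8 TPM. With TRAIL, Pold1 was below every medium library. Pole, the catalytic subunit of the leading strand polymerase, had the widest error of the 47 members, at 5.74, 7.09 and 5.60 TPM in medium, 14.3, 30.8 and 30.1 TPM after stimulation and 5.53, 5.08 and 3.80 TPM with TRAIL. The value of 14.3 came from stimulated replicate 1, and without that library the rise of Pole was 2.14 in place of 1.80 ± 0.26 and its change with TRAIL -2.45 in place of -2.10 ± 0.26. Pole2, its partner, moved less (0.76 ± 0.10 and -0.88 ± 0.10).

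The clamp PCNA, which tethers polymerases to DNA, was the most abundant member in every group. It stood at 311, 216 and 268 TPM in medium, 562, 437 and 450 TPM after stimulation and 329, 373 and 454 TPM with TRAIL. Stimulated and TRAIL-treated values of Pcna overlapped through TRAIL-treated replicate 3. Pcna rose with stimulation (0.87 ± 0.16, limma adjusted p = 0.00089) and did not pass with TRAIL (-0.33 ± 0.16, adjusted p = 0.10), except without TRAIL-treated replicate 3, where its change was -0.45 and adjusted p over all alternatives ran from 0.044 to 0.41. The pseudogene Pcna-ps2, whose reads could be exchanged with those of Pcna, was listed at 5.37 to 21.5 TPM. Among the 5 subunits of the RFC clamp loader, the smaller ones, Rfc2 to Rfc5, rose and fell, with changes of 0.35 to 1.60 and of -0.60 to -1.86, while the large subunit Rfc1 passed neither test. Rfc1 stood at 61.3 to 63.7 TPM in medium, 54.0, 80.6 and 80.6 TPM after stimulation and 54.4 to 56.7 TPM with TRAIL, and without stimulated replicate 1, the low value, its changes were 0.36 and -0.53 and both passed. Rfc4, which shares 194 exon bases on the opposite strand with the abundant Eif4a2, rose by 1.60 ± 0.19 and fell by 1.80 ± 0.19.

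The 3 subunits of RPA, which coats single-stranded DNA, also differed. Rpa2 and Rpa3 rose (0.62 ± 0.10 and 1.00 ± 0.24) and fell with TRAIL (-0.73 ± 0.10 and -1.34 ± 0.24). The large subunit Rpa1 stood at 76.1, 81.3 and 74.0 TPM in medium, 77.0, 91.6 and 66.6 TPM after stimulation, and 110, 98.3 and 95.3 TPM with TRAIL. Medium and stimulated values overlapped and the TRAIL-treated values were above both (0.37 ± 0.12 against stimulated cells, limma adjusted p = 0.019, lost under 3 of 18 alternatives, over which adjusted p ran from 0.0014 to 0.085). Rpa1 had the highest mean TPM of the 3 subunits in every group, 2.49-fold that of Rpa3, the lowest, in medium, 1.36-fold that of Rpa2, the lowest after stimulation, and 4.30-fold that of Rpa3 with TRAIL. Of the Okazaki fragment enzymes, the flap nuclease Fen1 stood at 33.9 to 38.0, 97.6 to 106 and 30.1 to 34.4 TPM and DNA ligase Lig1 at 22.8, 31.7 and 23.1 TPM, then 79.0, 115 and 109 TPM, then 18.7, 20.7 and 18.1 TPM. Both rose (1.5 ± 0.09 and 1.92 ± 0.17) and fell with TRAIL (-1.64 ± 0.09 and -2.32 ± 0.17).

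All 5 genes of dNTP supply rose with stimulation and all 5 fell at least 2-fold with TRAIL. Dut, which removes dUTP and supplies dUMP for thymidylate synthesis, moved most, from 25.5, 18.6 and 24.7 TPM to 129, 103 and 115 TPM and, with TRAIL, to 23.7, 26.0 and 25.1 TPM. Its medium and TRAIL-treated values overlapped. The ribonucleotide reductase subunits Rrm1 and Rrm2, which make all 4 deoxyribonucleotides, rose by 1.22 ± 0.10 and 0.87 ± 0.09 and fell by 1.55 ± 0.10 and 1.38 ± 0.09. Rrm2 stood at 31.9, 31.4 and 32.5 TPM in medium, 59.1, 60.7 and 57.9 TPM after stimulation and 22.6, 23.4 and 20.4 TPM with TRAIL, and the TRAIL-treated values were the lowest of the 3 groups. Thymidylate synthase (Tyms) was at 6.25 to 10.6, 20.7 to 22.9 and 6.05 to 8.58 TPM. Thymidine kinase 1 (Tk1), of the salvage route, was at 18.1 to 19.4, 27.8 to 32.7 and 11.3 to 14.02 TPM and rose least of the 5 (0.66 ± 0.11).

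Other genes of the same pathways, 47 in all, were listed by function as well. Of 32 further replisome and chromatin assembly genes, 25 rose with stimulation and 1 fell (the polymerase delta subunit Pold4, named after its value was seen), and 28 fell with TRAIL while none passed as higher (0 at an adjusted p below 0.05 in limma). The shares higher with stimulation (78.1%) and lower with TRAIL (87.5%) compare with 28.8% and 33.5% of all genes. Uhrf1, which couples DNA methylation to the fork, had the largest changes (2.51 ± 0.17 and -2.996 ± 0.17), followed by the chromatin assembly subunit Chaf1a (2.17 ± 0.13 and -2.38 ± 0.13) and the fork protection factor Tipin (1.84 ± 0.14 and -1.98 ± 0.14). Gmnn, the inhibitor of Cdt1, rose by 1.72 ± 0.25 and fell by 1.95 ± 0.25, a larger change with TRAIL than that of Cdt1 itself, although the difference between both genes was not tested. Of 15 further dNTP genes, 8 rose and 5 fell with stimulation, and 9 fell and 4 rose with TRAIL. Of this list 53.3% rose and 33.3% fell with stimulation, compared with 28.8% and 40% of all genes, and 60% fell and 26.7% rose with TRAIL, compared with 33.5% of all genes in each direction. The serine hydroxymethyltransferases Shmt2 (3.17 ± 0.15 and -3.73 ± 0.15) and Shmt1 (2.86 ± 0.11 and -3.07 ± 0.11) and the deaminase Dctd (2.46 ± 0.12 and -3.22 ± 0.12) moved most. The 5 that fell with stimulation, named after their values were seen, were the nucleoside and nucleotide kinases Cmpk2, Tk2, Dck and Dguok and the subunit Rrm2b, which serves ribonucleotide reductase outside S phase. Cmpk2 changed by -2.40 ± 0.13 and then by 1.52 ± 0.13, Tk2 by -1.40 ± 0.11 and 1.35 ± 0.11, and Dck by -1.11 ± 0.10 and 0.58 ± 0.10. Rrm2b fell by 0.88 ± 0.11 with stimulation and did not pass with TRAIL (0.17 ± 0.11, limma adjusted p = 0.17). Samhd1, which degrades dNTPs, stood at 372 to 435 TPM in medium, 605 to 777 TPM after stimulation and 282 to 339 TPM with TRAIL. It rose and fell as the 5 members of dNTP supply did, whereas Cmpk2, Tk2, Dck and Dguok fell and then rose.

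TRAIL-treated cells were last set against medium cells, to ask how far the members still differed from cells without TCR stimulation. Of the 47 members, 5 were higher (Dbf4, Orc1, Cdt1, Pcna and Rpa1), 9 were lower (Orc2, Mcm5, Cdc7, Gins3, Pold1, Rfc5, Rrm1, Rrm2 and Tk1) and 33 did not pass in limma. Among all genes tested, 8.03% were higher and 24.6% were lower. Changes of at least 2-fold were found for 2.49% (higher) and 2.13% (lower) of all genes and for 0 members, whose log2 fold changes ran from -0.59 (Pold1) to 0.81 (Dbf4), with 6 members higher and 19 lower at an unadjusted p below 0.05. The median was -0.25 over the members and -0.18 over all genes. Both comparisons with TRAIL-treated cells share those libraries.

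Orc1 (0.55 ± 0.11, limma adjusted p = 0.0038), Cdt1 (0.55 ± 0.11, adjusted p = 0.0044) and Dbf4 (0.81 ± 0.08, adjusted p = 8.3e-05) passed as higher than medium under all 18 alternatives. The TRAIL-treated libraries all lay between the medium and the stimulated libraries in 3 members (Orc1, Orc6 and Cdt1) and in 15.8% of all genes tested. They lay below both other groups in 19 members and in 15.8% of all genes, and above both in 2 members (Dbf4 and Rpa1) and in 6.34% of all genes. Pcna and Rpa1 were higher by 0.54 ± 0.16 and 0.39 ± 0.12, and their calls were lost under 5 and 6 of the 18 alternatives. Among the lower members, Cdc7 (-0.55 ± 0.12), Gins3 (-0.58 ± 0.13) and Rrm2 (-0.51 ± 0.09) passed under all alternatives. Pold1 and Tk1 were each lost under 1, Rfc5 and Rrm1 under 6, and Mcm5 and Orc2 under 12. The number of lower members was 16 without stimulated replicate 1, which is in neither group compared but enters the filter and the shared spread, and 5 without medium replicate 3 or TRAIL-treated replicate 3, and rescaling gave 5 by median of ratios and 4 by quantiles. The number of higher members was 3 without medium replicate 3, TRAIL-treated replicate 2 or TRAIL-treated replicate 3.

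**Figure D5:**
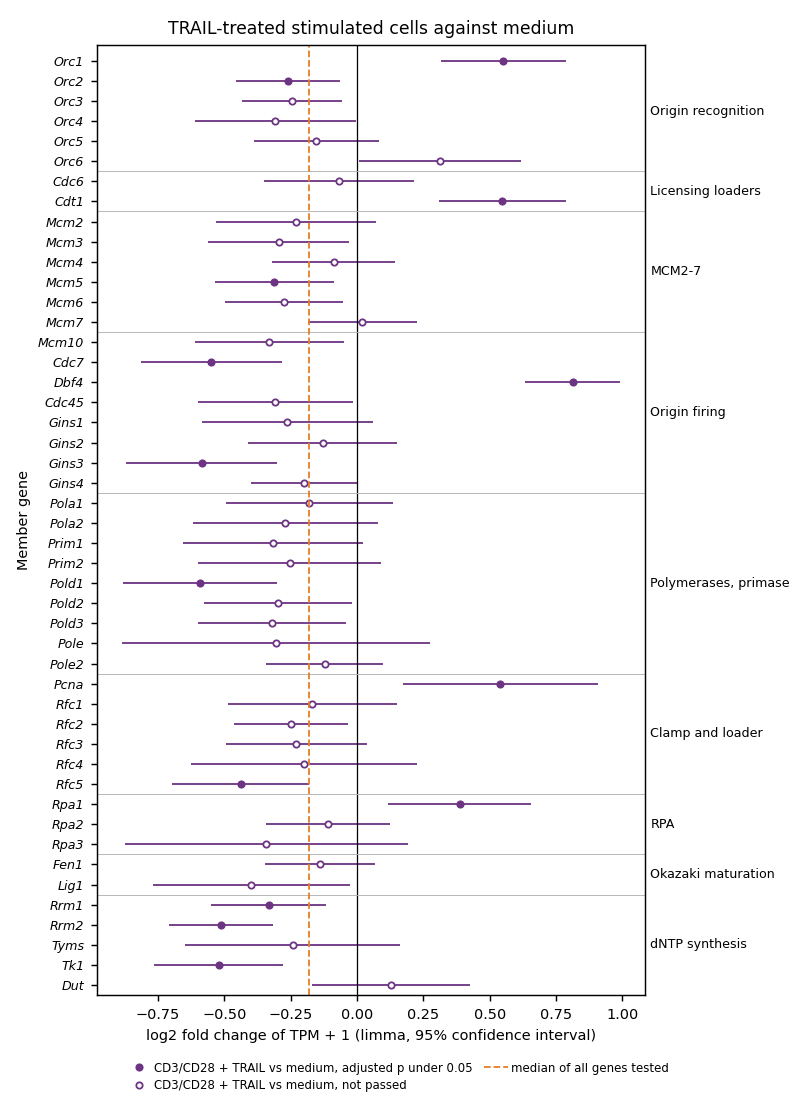
Log2 fold change of each member in TRAIL-treated against medium libraries (limma on log2(TPM + 1), 95% confidence intervals over 3 libraries a group). Filled points passed an adjusted p of 0.05 and the dashed line marks the median of all genes tested (-0.18). Of the 47 points, 39 lie within 0.4 of that line, and Dbf4 (0.81), Orc1, Cdt1, Pcna and Rpa1 are the filled points above 0.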

How the data were processed

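RNA-seq libraries of splenic CD4+ T cells (3 medium, 3 stimulated, 3 TRAIL-treated) were grouped by the sample labels. The authors used Trimmomatic (0.36) for trimming and HISAT2 (2.1.0) for alignment to GRCm38, and the submitters' processing notes also name SAMtools (1.2) and StringTie (2.1.2), without roles. The file deposited by the authors holds TPM values, each library scaled to the same total. The notes list a human build, but all 47 members lie at the same GRCm38 span as in GENCODE M21. The annotation release and the strand setting are not given in the sources used here. The authors normalized counts with DESeq2. Only TPM values were analysed here, which keep no depth, so counting error is unknown.

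log2(TPM + 1) was fitted for 15536 genes (1 TPM or more in 3 or more libraries), in R 4.3.3 with limma 3.58.1 (lmFit, eBayes with trend, all 9 libraries), with Benjamini-Hochberg adjustment over all of these genes. A gene passed at an adjusted p below 0.05, and at least 2-fold also needed an absolute log2 fold change of 1. This scale understates changes at low TPM. With 3 libraries a group, the smallest two-sided p of an exact permutation test is 0.1. The method was tested on simulated data. The members, the gene lists and the tests were chosen with earlier results of these data known. Every member was named, in other lists up to 4 genes with the largest change among those that passed, and Gmnn, Rrm2b and Samhd1 whatever their values. The values of 1 marker gene are not reported here. Alternatives (18) varied the pseudocount, filter, scaling, variance trend, libraries in the fit and replicate block, and left out each library in turn. Promoter windows came from RefSeq (GRCm38.p6), and stretches of 80 bases, or 30 inside a gene's span, were printed. Python 3.11.15, pandas 2.3.3, numpy 2.4.6 and matplotlib 3.10.9 were used.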

Additional observations from a re-analysis of the deposited data

How the results depend on the processing

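All 40 changes of members with stimulation passed under all 18 alternatives in the same direction, as did 39 of the 40 falls with TRAIL, all but that of Cdt1. Against stimulated cells 1 of the 3 rises with TRAIL (Dbf4) was kept under every alternative, and against medium 3 of 5 higher and 3 of 9 lower calls were kept. The depth is unknown, so counting error could not be set beside the lost calls.

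The member median with stimulation was 1.11 and 0.94 at pseudocounts of 0.1 and 5, 1.15 with median-of-ratios scaling and 1.19 with quantile normalization. With TRAIL against stimulated cells it was -1.21 at a pseudocount of 5, -1.25 and -1.23 under these scalings. Against medium it was -0.20, -0.074 and -0.080. The scalings moved the median of all genes by 0.083, 0.083 and 0.17 (median-of-ratios) and by 0.19, -0.061 and 0.14 (quantile) in the 3 comparisons. Of 2-fold changes of all genes, 53.9% were higher with TRAIL against medium, compared with 74.2% and 70.6% under these scalings; with stimulation the share was 38.8% and, under quantile normalization, 52.1%. Without the filter on low values, 1 member rose with TRAIL against stimulated cells and 3 were higher against medium. Members lower against medium numbered 5 and 4 under the scalings. Summed TPM under median-of-ratios scaling was 1674 in medium and 1891 with TRAIL, which puts TRAIL-treated above medium cells. The cause of these shifts was not tested.

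Leaving out 1 library at a time gave medians of 1.04 to 1.19, -1.40 to -1.33 and -0.29 to -0.17 in the 3 comparisons, 1 to 3 members higher with TRAIL against stimulated cells, and 3 to 5 higher and 5 to 16 lower against medium. Where a leave-out leaves 2 libraries in a group, the spread is pooled over groups.

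In the first 2 comparisons, directions turned only in members that did not pass. With stimulation, Dbf4 was at 0.091 and 0.086 under the scalings and from -0.021 to 0.011 on leaving out libraries, and Rpa1 at -0.0047 under quantile normalization and from -0.10 to 0.12. Orc5 ran from -0.0028 to 0.13 on leaving out libraries (up to 0.19 over all alternatives) and Gins3 from -0.053 to 0.059 (up to 0.29). Gins3 and Cdc7 passed as higher with stimulation under quantile normalization. With TRAIL against stimulated cells, Orc3 was at 0.044 under quantile normalization.

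Whether the replicate numbers pair the libraries is not stated. Correlations of the deviations of same-numbered libraries ran from -0.306 to 0.295, and those of differently numbered libraries from -0.379 to 0.289. These ranges overlap, so the correlations cannot settle whether the libraries were paired. With the replicate block 39 members rose with stimulation, 40 fell with TRAIL, and 7 in place of 9 were lower against medium.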

Other observations

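Of 15 genes of mitotic entry and the spindle, 6 rose with stimulation and 2 fell, with a median log2 fold change of 0.16, and 10 fell and 1 rose with TRAIL, with a median of -0.65 (limma, adjusted p below 0.05). The shares of the list were 40% higher and 13.3% lower with stimulation, compared with 28.8% and 40% of all genes, and 66.7% lower and 6.67% higher with TRAIL, compared with 33.5% of all genes in each direction. Cdk1, the kinase of mitotic entry, rose most (0.89 ± 0.18) and the spindle kinase Aurkb fell most with TRAIL (-1.46 ± 0.13). Cyclin B2 (Ccnb2) went the other way, at 16.8, 16.6 and 17.8 TPM in medium, 7.45, 8.37 and 7.59 TPM after stimulation and 11.8, 10.9 and 9.79 TPM with TRAIL. Mki67, a marker of cycling cells, stood at 62.7 to 64.7 TPM in medium, 18.2, 51.8 and 48.0 TPM after stimulation and 34.2 to 39.8 TPM with TRAIL, and the low stimulated value was that of replicate 1. Mki67 was thus highest in the medium libraries, in which the summed members stood at 1709 to 1876 TPM. The part of the other cell types in these medium levels was not tested.

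Of 11 E2F and retinoblastoma genes, 5 rose (45.5%) and 3 fell (27.3%) with stimulation, compared with 28.8% and 40% of all genes. With TRAIL, 6 fell (54.5%) and 3 rose (27.3%), compared with 33.5% of all genes in each direction. E2f1, an activating E2F factor, stood at 6.72, 8.42 and 6.54 TPM in medium, 30.2, 33.1 and 33.3 TPM after stimulation and 7.20, 7.18 and 6.91 TPM with TRAIL, and its medium and TRAIL-treated libraries overlapped. The pocket proteins Rb1 and Rbl2, which hold E2F factors in check, fell with stimulation (-1.14 ± 0.16 and -1.35 ± 0.17) and rose with TRAIL (0.78 ± 0.16 and 1.00 ± 0.17), while the third, Rbl1, rose (0.39 ± 0.12) and fell (-0.85 ± 0.12). E2f2 fell by 1.24 ± 0.12 with stimulation and rose by 0.46 ± 0.12 with TRAIL. In contrast, E2f3 (1.07 ± 0.15 and -1.74 ± 0.15), E2f4 (0.72 ± 0.12 and -1.35 ± 0.12) and E2f6 (0.96 ± 0.11 and -1.45 ± 0.11) rose and then fell. Rbl1, E2f3, E2f4 and E2f6 were named after their values were seen.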
